A study of Mus musculus with 6 samples.

Results

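The G1 cyclins, their kinases and inhibitors were followed in mammary tumors of NeuT/ATTAC mice treated with IgG or with an anti-PD-1 mAb. These are 10 genes, Ccnd1, Ccnd2, Ccnd3, Ccne1, Ccne2, Cdk4, Cdk6, Cdkn1a, Cdkn1b and Cdkn2a, chosen by name among the 54532 Ensembl gene IDs of the RNAseq files. All 10 had a mean of at least 0.5 FPKM (fragments per kilobase of exon per unit of library size) and were therefore among the 15069 genes tested. At an unadjusted p under 0.05, which is the threshold of the study's methods, Ccnd1, Ccnd3, Cdk4 and Cdkn1a were higher in the anti-PD-1 group and no member was lower. None of the 10 had an adjusted p under 0.05.

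D-type cyclins bind Cdk4 or Cdk6 in early G1, and the complexes phosphorylate the retinoblastoma protein, which frees E2F factors to turn on genes for DNA synthesis. E-type cyclins act later in G1 with Cdk2. Cdkn1a (p21) and Cdkn1b (p27) bind cyclin-kinase complexes, Cdkn2a encodes p16Ink4a, which binds Cdk4 and Cdk6, and p19Arf, which stabilizes p53, and cyclin D1 is a known effector of Erbb2 in mammary tumors.

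There were 3 tumors from IgG-treated and 3 from anti-PD-1-treated mice, with 1 file each. Every mouse, those given IgG included, carried the MMTV-NeuT transgene, in which a viral promoter drives Erbb2 in mammary epithelium, and the FAT-ATTAC transgene, a caspase that the drug AP20187 activates in adipocytes, on an FVB background. AP20187 was injected at 0.4 mg/kg, starting at 6 weeks of age, to induce fibrosis, and from 8 weeks each mouse was given 100 μg of anti-PD-1 or of a matching IgG mAb at each injection. By the study's methods the antibody was given over several months, with no exact age at tumor collection, there was no group without fibrosis, and nothing states that the 3 samples of a group came from separate litters or cages, so p-values measure the spread between these samples. A figure legend of the study says that RNA of several tumors per group was pooled for RNAseq, while the labels give 3 numbered tumor samples per group. They are called tumors here, and if a sample were a pool, its p-values would measure the spread between pools and not between mice.

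The FPKM implied library totals of 22009894 to 25596231 fragments. Pearson correlations between tumors over the log2 values of all tested genes (not independent of each other) lay from 0.892 to 0.958, and IgG replicate 1 correlated less with its own group (mean r = 0.936) than with the anti-PD-1 tumors (mean r = 0.954). Within its own group IgG replicate 1 was no outlier, since IgG replicates 2 and 3 had own-group means of 0.932 and 0.931. Their means with the anti-PD-1 tumors were 0.906 and 0.917. The counts of calls, and the members whose call or overlap changed, are therefore also given without IgG replicate 1. Leaving out the IgG tumor closest to the anti-PD-1 tumors by itself tends to widen the differences between the groups. Markers of luminal epithelium (Erbb2, Epcam, Krt8, Krt18, Cdh1) summed to between 1889 and 3625 FPKM and those of fibroblasts to between 55.6 and 232 FPKM, whereas the 5 T cell markers summed to at most 2.78 FPKM, with Cd3e and Cd3d at 0 in at least 1 tumor. Skeletal muscle markers ran from 0.0464 to 71.7 FPKM in IgG tumors and from 0.0551 to 72.4 FPKM in anti-PD-1 tumors. In bulk tumors, fewer cells of a type and less RNA per cell cannot be told apart.

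**Figure D1:**
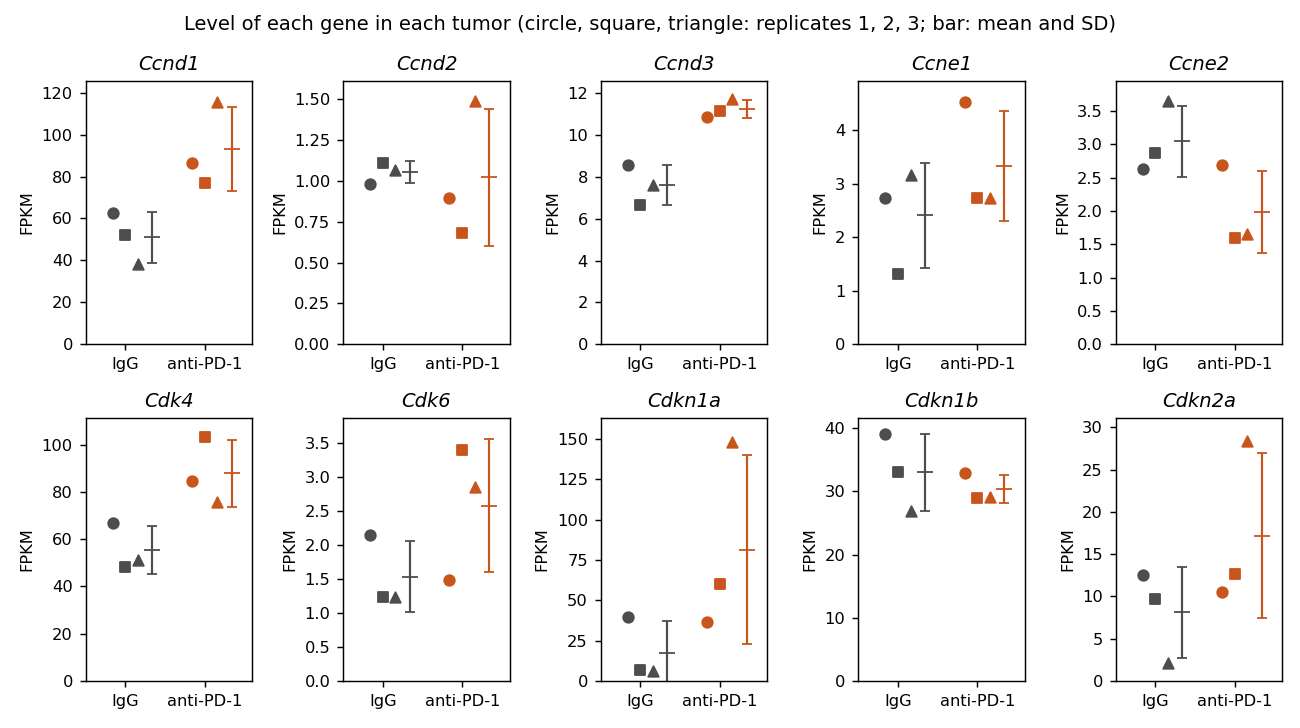
FPKM of each of the 10 genes in each tumor, on linear axes that start at 0, with IgG in gray and anti-PD-1 in orange; circles, squares and triangles are replicates 1, 2 and 3, and the bar is the mean and SD of 3 tumors, which for Cdkn1a in IgG passes below 0 and is not drawn there. The groups do not overlap for Ccnd1, Ccnd3 and Cdk4, and the Cdkn1a value of 39.9 FPKM in IgG replicate 1 lies above the 36.3 FPKM of anti-PD-1 replicate 1.

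Median levels per length over the 6 tumors ordered the genes as Cdk4 (71.2 FPKM), Ccnd1 (69.8), Cdkn1a (38.1), Cdkn1b (31.0), Cdkn2a (11.5), Ccnd3 (9.72), Ccne1 (2.74), Ccne2 (2.66), Cdk6 (1.82) and Ccnd2 (1.03). Of the 9 neighboring pairs in this order, Cdkn1b was above Cdkn2a, Ccnd3 above Ccne1 and Cdk6 above Ccnd2 in 6 of 6 tumors (exact two-sided sign-flip p = 0.03125 each, the smallest that 6 tumors allow, Benjamini-Hochberg adjusted p = 0.094 over the 9 pairs). In the remaining 6 pairs the order was not the same in all tumors (exact p of at least 0.0625), so that these neighbors did not differ beyond their spread, and no pair passed after adjustment. The order of the group means was not the same in both groups, which was not tested. Cdkn1a (17.5 FPKM) was below Cdkn1b (33.0 FPKM) in IgG and above it in anti-PD-1 (81.4 and 30.3 FPKM). Cdk4 and Ccnd1 exchanged places, and Ccne2 was above Ccne1 and Cdk6 in IgG and below both in anti-PD-1. Single tumors went against these means. In IgG replicate 1 Cdkn1a (39.9 FPKM) was above Cdkn1b (39.0 FPKM) and Ccne1 (2.74 FPKM) above Ccne2 (2.63 FPKM). Ccnd1 was above Cdk4 in IgG replicate 2 (52.3 and 48.1 FPKM) and below it in anti-PD-1 replicate 2 (76.9 and 103 FPKM). Cdk4 and Ccnd1 were thus at similar levels, with 3.92% and 4.06% of tested genes above them, and the other kinase and the other D-type cyclins were low beside them.

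Ccnd1, the gene of cyclin D1 (chromosome 7, 144929931 to 144939925, GRCm38, minus strand), measured 62.7, 52.3 and 38.3 FPKM in the IgG tumors (replicates 1, 2 and 3, an order kept throughout) and 86.7, 76.9 and 116 FPKM in the anti-PD-1 tumors. All 3 anti-PD-1 tumors were above all 3 IgG tumors, and anti-PD-1 replicate 3 was the highest. The mean was 51.1 ± 12.2 FPKM in IgG and 93.1 ± 20.2 FPKM in anti-PD-1 (SD, n = 3 each), and limma gave a log2 fold change of 0.86 (SE 0.24, 95% interval 0.29 to 1.43, unadjusted p = 0.0087, adjusted p = 0.34). An exact two-sided permutation test of 3 against 3 gave p = 0.1, the smallest it allows. Without IgG replicate 1 the log2 difference was 1.02 with an unadjusted p of 0.0058. In the same tumors the summed luminal markers, none of whose 5 genes had an unadjusted p under 0.05, lay between 1889 and 2622 FPKM in IgG and between 2511 and 3625 FPKM in anti-PD-1, and IgG replicate 3 was lowest and anti-PD-1 replicate 3 highest for both. The 5 macrophage markers (Adgre1, Cd68, Csf1r, C1qa, Mrc1) summed to between 132 and 224 FPKM in IgG and between 171 and 269 FPKM in anti-PD-1, and 1 of them passed the threshold, Cd68, at 18.1, 15.1 and 13.7 FPKM in IgG and 22.1, 30.5 and 29.1 FPKM in anti-PD-1 (log2 0.76, unadjusted p = 0.0044). The markers of a list did not move alike. Among the luminal ones Erbb2, Epcam, Krt8 and Krt18 had log2 fold changes between 0.34 and 0.43, and Cdh1 had -0.34. The other macrophage markers were Adgre1 (log2 0.005), Csf1r (0.11), C1qa (0.34) and Mrc1 (0.49), and C1qa made up most of the sum. The part of the luminal and macrophage markers in Ccnd1 and the other higher members was not tested. Ccnd1 shares 1100 exon bases with LTO1 on the opposite strand, whose FPKM was between 4.24 and 5.57, and whether counting used strand is not stated.

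Ccnd3 encodes the related cyclin D3 and Ccnd2 cyclin D2. Ccnd3 measured 8.58, 6.64 and 7.64 FPKM in the IgG tumors and 10.9, 11.2 and 11.7 FPKM in the anti-PD-1 tumors, so that the groups did not overlap. Its log2 fold change was 0.51 (SE 0.15, unadjusted p = 0.011, limma adjusted p = 0.35). Bysl, on the opposite strand with 361 shared exon bases, ran from 2.37 to 3.10 FPKM in IgG and from 2.90 to 6.28 FPKM in anti-PD-1. Ccnd2 was near 1 FPKM in every tumor, at 0.982, 1.11 and 1.07 FPKM in IgG and 0.895, 0.679 and 1.49 FPKM in anti-PD-1. The groups overlapped, with a log2 fold change of -0.04 and a 95% interval from -0.55 to 0.46.

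Cdk4, the kinase partner of the D-type cyclins, measured 66.8, 48.1 and 51.2 FPKM in IgG and 84.7, 103 and 75.6 FPKM in anti-PD-1. Again every anti-PD-1 tumor was above every IgG tumor, here with anti-PD-1 replicate 2 the highest. The log2 fold change was 0.66 (SE 0.20, 95% interval 0.19 to 1.12, unadjusted p = 0.012, limma adjusted p = 0.35). Tspan31, which shares 641 exon bases with Cdk4 on the opposite strand, ran from 29.6 to 40.1 FPKM in IgG and from 34.6 to 43.2 FPKM in anti-PD-1, so its groups overlapped. Cdk6, its close relative, was at 2.14, 1.24 and 1.23 FPKM in IgG and 1.49, 3.39 and 2.86 FPKM in anti-PD-1. Anti-PD-1 replicate 1 lay within the IgG range, and the log2 fold change was 0.48 (95% interval -0.16 to 1.11, unadjusted p = 0.12, limma adjusted p = 0.50). Without that tumor it was 0.72 with an unadjusted p of 0.026, and without anti-PD-1 replicate 2, the highest, 0.31 with an unadjusted p of 0.33. With IgG replicate 1 left out it was 0.64 (unadjusted p = 0.068) and the groups did not overlap.

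Of the 4 genes past the threshold, 3 (Ccnd3, Cdk4 and Cdkn1a) have promoters in the RefSeq table used here (GRCm38.p6), and these are shown as the sequences upstream of the genes that differed. Each runs 5′ to 3′ on the gene's strand from 250 bases before a transcription start to 50 after it. Capitals mark GC boxes (GGGCGG or CCGCCC), E-boxes (CACGTG, its own reverse complement) and, in Cdk4, a TCF/LEF motif (ATCAAAG).
Cdk4, chr10:127063285-127063584, plus strand: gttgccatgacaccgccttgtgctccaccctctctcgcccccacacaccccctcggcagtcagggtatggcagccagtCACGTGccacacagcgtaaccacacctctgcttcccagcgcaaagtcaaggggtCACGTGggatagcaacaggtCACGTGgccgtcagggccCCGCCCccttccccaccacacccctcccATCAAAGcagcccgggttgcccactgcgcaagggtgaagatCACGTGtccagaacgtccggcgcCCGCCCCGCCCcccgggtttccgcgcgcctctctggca
Ccnd3, upstream start, chr17:47504801-47505100, plus strand: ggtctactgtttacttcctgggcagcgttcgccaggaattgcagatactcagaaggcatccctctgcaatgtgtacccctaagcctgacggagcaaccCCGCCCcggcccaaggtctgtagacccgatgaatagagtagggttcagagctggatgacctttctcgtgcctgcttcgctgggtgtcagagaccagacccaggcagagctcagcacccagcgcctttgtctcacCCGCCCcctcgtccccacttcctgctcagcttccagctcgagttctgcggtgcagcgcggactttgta
Ccnd3, downstream start, chr17:47593217-47593516, plus strand: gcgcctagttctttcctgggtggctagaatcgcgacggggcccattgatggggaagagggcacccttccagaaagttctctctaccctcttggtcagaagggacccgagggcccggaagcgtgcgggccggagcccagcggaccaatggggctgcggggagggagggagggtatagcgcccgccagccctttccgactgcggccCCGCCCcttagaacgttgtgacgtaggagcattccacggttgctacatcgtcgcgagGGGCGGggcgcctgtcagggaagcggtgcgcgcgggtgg
Cdkn1a, upstream start, chr17:29090729-29091028, plus strand: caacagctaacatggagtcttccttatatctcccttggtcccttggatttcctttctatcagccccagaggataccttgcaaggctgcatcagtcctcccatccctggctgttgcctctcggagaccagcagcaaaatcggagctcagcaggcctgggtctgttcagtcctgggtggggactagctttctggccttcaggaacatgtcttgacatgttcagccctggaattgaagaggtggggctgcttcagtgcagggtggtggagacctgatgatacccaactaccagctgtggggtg
Cdkn1a, downstream start, chr17:29093519-29093818, plus strand: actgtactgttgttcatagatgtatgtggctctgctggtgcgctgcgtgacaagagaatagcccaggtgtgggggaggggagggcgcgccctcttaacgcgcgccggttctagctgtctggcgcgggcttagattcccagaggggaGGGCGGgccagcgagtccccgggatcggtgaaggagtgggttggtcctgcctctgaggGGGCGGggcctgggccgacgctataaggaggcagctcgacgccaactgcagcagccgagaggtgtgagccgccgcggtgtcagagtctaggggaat

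The Cdk4 window held 4 E-boxes, the hexamer that Myc and related factors bind, at -172, -118, -98 and -11, counted from the transcription start as 0. An E-box was present in 7.15% of the 32851 promoters of the table, and at least 4 were present in 8 of them (0.0244%). Cdk4 also held ATCAAAG at -52, a motif present in 3.73% of promoters, and 3 GC boxes, of which those at 12 and 17 share a base. GC boxes were common, in 35.7% of all promoters, and both Ccnd3 windows and the downstream Cdkn1a window held 2 each. No E-box was in the windows of Ccnd3 or Cdkn1a. The upstream Cdkn1a window held 2 CpG dinucleotides and none of the motifs searched, against 23 CpG in the downstream window. The motifs searched were E2F, E-box, GC box, TATA and TCF/LEF, and no p53 motif was among them, so p53 sites in these windows are not described. Among the other members, 1 E-box was in the Cdk6 window, and a match to 1 E2F motif (TTCCCGC) was in the upstream Cdkn2a window. These matches are letters in a window and not measured binding, and the gene-level FPKM do not say which start was used. Myc itself was at 22.4, 22.5 and 25.3 FPKM in IgG and 21.9, 20.1 and 31.1 FPKM in anti-PD-1, a log2 fold change of 0.04 with a 95% interval from -0.42 to 0.49.

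The E-type cyclins lay lower and their values went opposite ways. Ccne1 measured 2.74, 1.31 and 3.17 FPKM in IgG and 4.52, 2.74 and 2.74 FPKM in anti-PD-1, and Ccne2 measured 2.63, 2.86 and 3.65 FPKM in IgG and 2.69, 1.59 and 1.65 FPKM in anti-PD-1. Neither passed the threshold, with log2 fold changes of 0.37 for Ccne1 (95% interval -0.30 to 1.03, unadjusted p = 0.23) and -0.45 for Ccne2 (95% interval -0.95 to 0.04, unadjusted p = 0.067). Both rested on few reads, 84 to 309 per tumor for Ccne1 and 136 to 314 for Ccne2. Within a tumor, the ratio of Ccne1 to Ccne2 was 1.04, 0.456 and 0.870 in the IgG tumors and 1.68, 1.72 and 1.66 in the anti-PD-1 tumors. The ratio did not overlap between the groups, a log2 difference of 1.18 with an exact two-sided permutation p of 0.1, and was among 4 ratios computed after the values were seen. The Ccne1 log2 difference was 0.11 without IgG replicate 2 (unadjusted p = 0.68) and 0.18 with anti-PD-1 replicate 1 left out (unadjusted p = 0.57). That of Ccne2 was -0.62 (unadjusted p = 0.025) without anti-PD-1 replicate 1, -0.53 (unadjusted p = 0.072, groups not overlapping) without IgG replicate 1, and between -0.48 and -0.35 without any other single tumor.

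Ccne2 and Cdkn2a lie on chromosome 4, whose 926 tested genes had a median log2 fold change 0.41 below that of all genes, with 83.6% of them lower in anti-PD-1. Relative to the 6-tumor mean, the median log2 value of chromosome 4 genes was -0.09, 0.35 and 0.31 in the IgG tumors and -0.16, -0.22 and -0.24 in the anti-PD-1 tumors. On the other chromosomes that hold members this shift was between 0.04 and 0.07. Ints8, which shares 609 exon bases with Ccne2 on the opposite strand of chromosome 4, was also lower, at 4.35, 8.62 and 7.67 FPKM in IgG and 3.34, 3.54 and 3.83 FPKM in anti-PD-1. The part of the chromosome and of this overlap in the Ccne2 values was not tested.

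Cdkn1a, the p21 inhibitor, had the widest range of the 10 genes. It measured 39.9, 6.79 and 5.88 FPKM in the IgG tumors and 36.3, 59.96 and 148 FPKM in the anti-PD-1 tumors. IgG replicate 1 stood with the anti-PD-1 tumors and above 1 of them, so that the groups overlapped. The log2 fold change was 2.42 (SE 0.77, 95% interval 0.62 to 4.23, unadjusted p = 0.015, limma adjusted p = 0.35), with an exact two-sided permutation p of 0.2. Without IgG replicate 1 it was 3.25 with an unadjusted p of 0.00085, and the groups no longer overlapped. AC167363.2, with 273 shared exon bases on the opposite strand of Cdkn1a, was at most 3.06 FPKM. The call depended on other tumors as well, since the unadjusted p was 0.058 without IgG replicate 2 (log2 2.06), 0.058 without IgG replicate 3 (log2 1.97) and 0.054 without anti-PD-1 replicate 3 (log2 1.88).

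Cdkn1b, the p27 inhibitor of the same family, stayed within a narrow range of 39.0, 33.1 and 26.9 FPKM in IgG and 32.9, 29.0 and 29.1 FPKM in anti-PD-1. The groups overlapped, with a log2 fold change of -0.10 and a 95% interval from -0.52 to 0.31. Cdkn2a was at 12.5, 9.67 and 2.15 FPKM in IgG and 10.5, 12.7 and 28.4 FPKM in anti-PD-1. IgG replicate 3 was the lowest and anti-PD-1 replicate 3 the highest, while the other 4 tumors lay together between 9.67 and 12.7 FPKM. Its log2 fold change was 1.11 (95% interval -0.27 to 2.50, unadjusted p = 0.0997, limma adjusted p = 0.47). Both end values bore on it, since it was 0.47 (unadjusted p = 0.30) without IgG replicate 3 and 0.70 (unadjusted p = 0.29) without anti-PD-1 replicate 3, against 1.52 (unadjusted p = 0.045, groups not overlapping) without IgG replicate 1. The FPKM cover p16Ink4a and p19Arf together, which share exons and cannot be told apart in a value per gene.

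**Figure D2:**
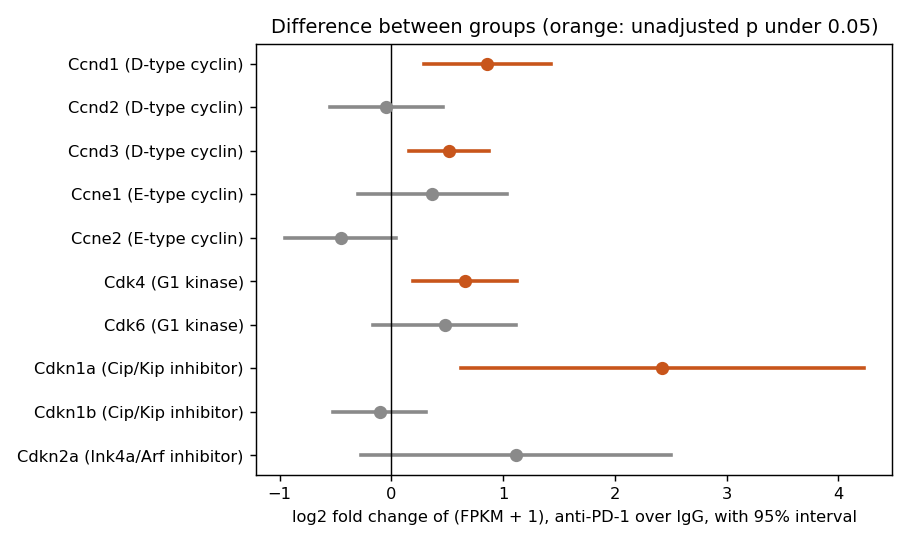
Log2 fold change of (FPKM + 1), anti-PD-1 over IgG, for each gene with its 95% interval from limma; orange marks an unadjusted p under 0.05. The 4 orange genes lie to the right of 0, and the interval of Cdkn1a, from 0.62 to 4.23, is the widest.

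Taking the members together, 4 of 10 were higher at an unadjusted p under 0.05, where 6.22% of all tested genes were (937 of 15069). At the same threshold 0 of 10 were lower, where 6.05% of all tested genes were. The members were chosen with earlier results of these data known, so these counts are not an independent comparison with all genes. The groups did not overlap for 3 of 10, all higher, against 9.3% of all tested genes that were higher without overlap and 8.75% that were lower. No gene of the 15069 had an adjusted p under 0.05 in limma, and 1848 (12.3%) had an unadjusted p under 0.05. That share depended on single tumors, with 961 genes (6.38%) and 3 members called without IgG replicate 2 and 1158 genes (7.68%) and 3 members with anti-PD-1 replicate 3 left out. Over the 10 genes the median log2 fold change was 0.49, and over all genes 0.01. Without IgG replicate 1, 5 of 10 were higher, where 8.44% of all genes were, and 7 of 10 did not overlap, where 35.5% of all genes did not. Ccnd1, Ccnd3 and Cdk4 were called in each of 14 alternative fits. An adjusted p under 0.05 was reached by 12 genes in limma without IgG replicate 1, by 1 gene without IgG replicate 3, by 1 gene (0.00695% of those tested) with voom on recovered reads and by 0 in the other 11 fits, and by no member in any of them.

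Shares within a family show the balance of its members in each tumor. Ccnd1 made up 86.8, 87.1 and 81.5% of the D-type cyclin FPKM in the IgG tumors and 88.1, 86.6 and 89.7% in the anti-PD-1 tumors, an overlap with an exact two-sided permutation p of 0.3. Cdk6 made up 3.11, 2.50 and 2.34% of the Cdk4 and Cdk6 FPKM in the IgG tumors and 1.73, 3.18 and 3.64% in the anti-PD-1 tumors (exact p = 0.8). Cdkn1a made up 50.5, 17.0 and 18.0% of the Cdkn1a and Cdkn1b FPKM in the IgG tumors and 52.5, 67.4 and 83.6% in the anti-PD-1 tumors. The Cdkn1a share therefore did not overlap between the groups (28.5 ± 19.1% and 67.8 ± 15.5%, SD, n = 3 each, exact p = 0.1), although IgG replicate 1 was only just below anti-PD-1 replicate 1. The difference was 39.3 percentage points, and 50.3 without IgG replicate 1 (exact p = 0.2, the smallest that 2 against 3 allows). The ratio of Ccnd1 to Cdk4 stayed between 0.744 and 1.53 with overlapping groups (exact p = 0.7), while Cdkn1a over Ccnd1 was 0.636, 0.130 and 0.153 in the IgG tumors and 0.419, 0.780 and 1.28 in the anti-PD-1 tumors, again with IgG replicate 1 inside the anti-PD-1 range (exact p = 0.2) and the other IgG tumors below it.

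**Figure D3:**
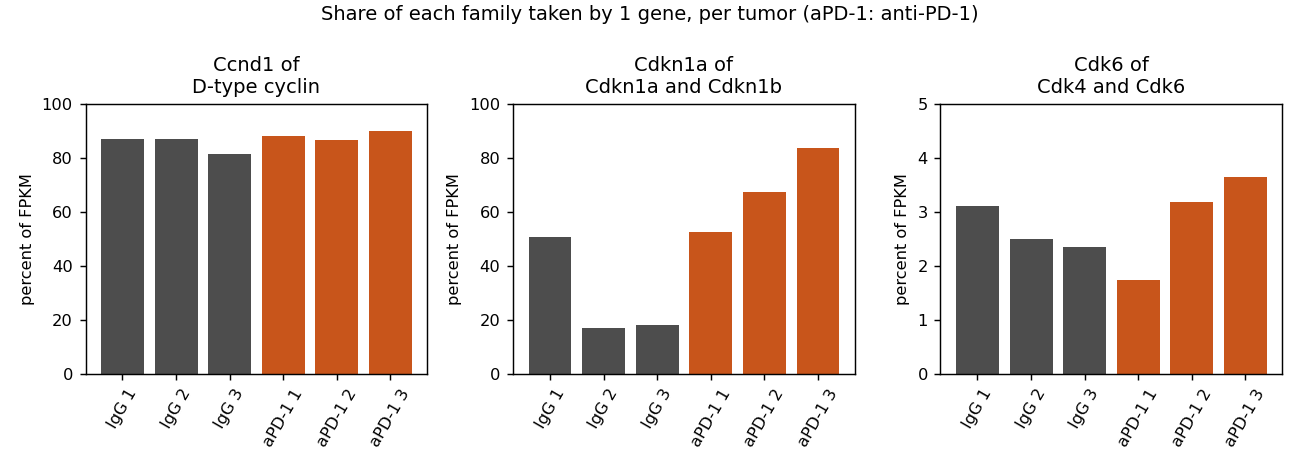
Share of FPKM taken by 1 gene of a family in each tumor, as percent on axes that start at 0, with a smaller scale for Cdk6; IgG in gray, anti-PD-1 in orange. Ccnd1 takes between 81.5 and 89.7% in every tumor, and the Cdkn1a share is above 50% in IgG replicate 1 and in all 3 anti-PD-1 tumors.

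The other genes of G1 control were described by 5 lists, each given by its counts beside the 6.22% of all genes that were higher and the 6.05% that were lower. The lists too were chosen with earlier results of these data known, so their counts are not an independent comparison. Of 18 other G1 regulators, 2 were higher and 0 lower, with a median log2 fold change of 0.05 that lay between 0.01 and 0.07 with any single tumor left out (0.02 for IgG replicate 2, 0.03 and 0.01 for anti-PD-1 replicates 2 and 3). The higher genes were Cdkn2b (p15Ink4b, a Cdk4 and Cdk6 inhibitor), at 8.66, 6.70 and 2.04 FPKM in IgG and 14.4, 14.3 and 16.7 FPKM in anti-PD-1, and Cks1b, which helps to degrade p27, with log2 0.76 (unadjusted p = 0.022). Cdkn2b neighbors Cdkn2a on chromosome 4, where most genes were lower, and its log2 fold change was 1.40 (unadjusted p = 0.010, limma adjusted p = 0.34). Cdk2, the partner of the E-type cyclins, was at 7.65, 6.18 and 7.97 FPKM in IgG and 8.84, 11.98 and 8.53 FPKM in anti-PD-1, which do not overlap (log2 0.38, unadjusted p = 0.081). Rb1 (log2 -0.38), Rbl2 (-0.41) and Cdkn2c (-0.50) did not pass, with unadjusted p of 0.22, 0.11 and 0.12, and Cdkn2c also lies on chromosome 4.

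Of 25 tested E2F factors and S phase targets, 2 were higher and 1 lower, with a median of 0.24 that was 0.06 without IgG replicate 2 and 0.16 with anti-PD-1 replicate 2 left out. Tk1 (log2 0.79, unadjusted p = 0.015) and Mcm2 (0.55, unadjusted p = 0.032) act in nucleotide supply and in replication licensing, and Tfdp2 (-0.69, unadjusted p = 0.031) is a dimerization partner of E2F, while E2f5 did not pass (-0.40, unadjusted p = 0.085). The median of this list relative to the 6-tumor mean was near 0 in IgG replicates 1 and 3, -0.36 in IgG replicate 2 and 0.21, 0.30 and -0.22 in the anti-PD-1 tumors, so that anti-PD-1 replicate 3, highest for Ccnd1, Cdkn1a and Cdkn2a, was the lowest of its group here. Of 14 cyclins and kinases of S phase, G2 and mitosis, 0 passed in either direction, with values from -0.40 for Ccnb2 to 0.46 for Aurka and a median of 0.23. That median was -0.07 without IgG replicate 2, 0.03 without anti-PD-1 replicate 2 and 0.46 with anti-PD-1 replicate 3 left out. Ccnf (log2 0.33) and Wee1 (-0.11) had unadjusted p of 0.27 and 0.51. Mki67, a marker of cycling cells, was at 26.05, 17.4 and 33.7 FPKM in IgG and 20.7, 26.3 and 16.2 FPKM in anti-PD-1, again overlapping (log2 -0.25, 95% interval -0.90 to 0.40), and E2f1 likewise did not pass (log2 0.26, unadjusted p = 0.41).

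Among 22 ErbB receptors and genes of ERK pathway output, 0 were higher and 2 lower. The lower genes were Erbb4 (log2 -1.45, unadjusted p = 0.0063) and Egfr (-0.73, unadjusted p = 0.010). Erbb4 was low, at 0.616, 2.13 and 3.69 FPKM in IgG and 0.126, 0.0232 and 0 FPKM in anti-PD-1. With 1 added before log2, its log2 fold change is not the ratio of these FPKM. The list median was 0.17. Single tumors moved that median to 0.02 (IgG replicate 1 left out), 0.05 (IgG replicate 2), 0.31 (IgG replicate 3) or 0.03 (anti-PD-1 replicate 3). Erbb2 was at 23.0, 20.2 and 20.8 FPKM in IgG and 31.3, 25.0 and 25.8 FPKM in anti-PD-1, which do not overlap (log2 0.34, unadjusted p = 0.061, limma adjusted p = 0.42). How reads of the transgene were assigned to Erbb2 is not given in the sources used here. The ERK-induced factor Etv4 had log2 0.64 (unadjusted p = 0.058).

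Of 19 tested genes for p53 and its targets other than Cdkn1a, 6 were higher and 1 lower, with a median of 0.42 that was 0.64 without IgG replicate 1. Perp (log2 0.77, unadjusted p = 0.010) and Bax (0.75, unadjusted p = 0.022), both linked to p53-dependent cell death, were among the higher genes, Trp53inp1, on chromosome 4 where 83.6% of tested genes were lower, was lower (-0.65, unadjusted p = 0.019), and Fas (-0.67, unadjusted p = 0.063) and Mdm2 (0.35, unadjusted p = 0.13) did not pass. The list median per tumor was 0.02, -0.33 and -0.42 in the IgG tumors and 0.06, 0.25 and 0.51 in the anti-PD-1 tumors. IgG replicate 1 was the highest IgG tumor and anti-PD-1 replicate 3 the highest of all, as for Cdkn1a. With IgG replicate 1 left out, 8.44% of all tested genes were higher and 9.34% lower. In that fit 9 genes of the p53 list were higher and 1 lower, 4 higher and 1 lower among the E2F and S phase genes, 2 higher and 1 lower among the other G1 regulators, 0 higher and 3 lower in the ErbB and ERK list, and 0 in either direction in the mitotic list.

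**Figure D4:**
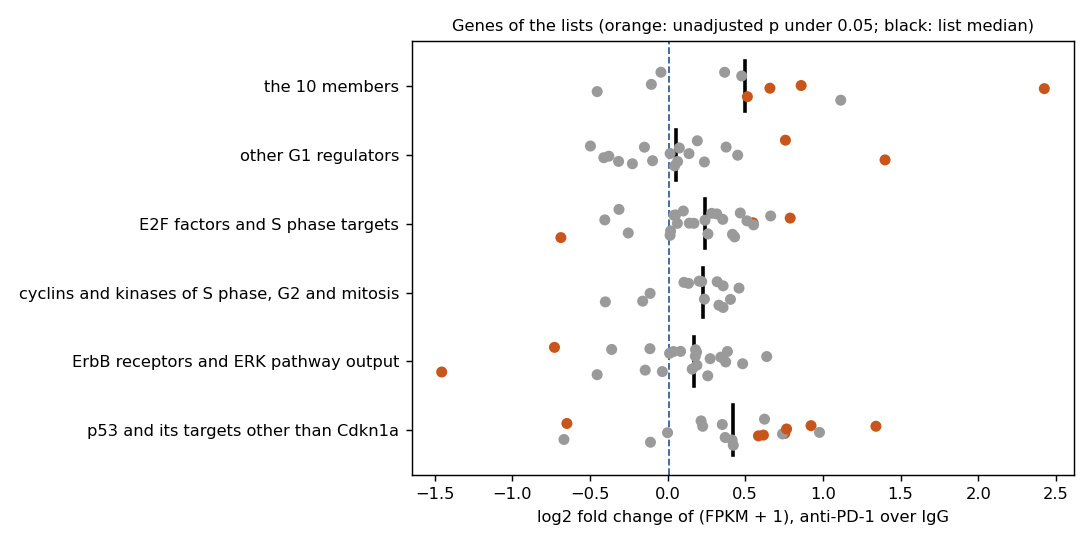
Log2 fold change of (FPKM + 1), anti-PD-1 over IgG, for every tested gene of the 10 members and of the 5 lists; orange marks an unadjusted p under 0.05, the black bar is the list median, and the dashed line is the median of all tested genes. The list medians run from 0.05 for the other G1 regulators to 0.49 for the members, and the mitotic list has no orange point.

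The genes whose log2 values followed Ccnd1 most closely over the 6 tumors, among 7965 genes with a mean of at least 5 FPKM, were Tsta3 (Pearson r = 0.995), Wdfy1 (r = 0.993) and Rtcb (r = 0.992). Wdfy1 measured 16.1, 13.2 and 11.2 FPKM in IgG and 22.2, 19.1 and 26.5 FPKM in anti-PD-1, the same order of tumors as Ccnd1. Those closest to Cdkn1a were Tnfrsf10b (r = 0.993), a death receptor, Scamp1 (r = 0.992) and Blcap (r = 0.989). Tnfrsf10b was at 6.36, 2.94 and 3.05 FPKM in IgG and 6.60, 7.92 and 10.0 FPKM in anti-PD-1, with IgG replicate 1 high as for Cdkn1a. These correlations were picked as the largest of many over 6 points and share their libraries.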

How the data were processed

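RNAseq was available for 3 IgG and 3 anti-PD-1 tumors, grouped by their labels. The authors checked reads with FastQC 0.11.9, trimmed them with Cutadapt 3.5, built a Bowtie2 2.4.1 index of Ensembl mm10 and counted with RSEM 1.3.1, and used their DESeq2 1.36.0 for testing. They deposited FPKM values per gene, and how the FPKM were made, or whether strand was used, is not given in the sources used here. FPKM times merged exon length (GENCODE M21, GRCm38) were whole reads within 0.1 for 97.0 to 97.3% of detected values, and the reads stated were recovered in this way. 54495 of 54532 IDs matched the annotation.

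FPKM were divided by median-of-ratios factors (1.00 to 1.01), 1 was added and log2 taken. A fold change on this scale understates that of low genes. The 15069 genes whose mean FPKM reached 0.5 were compared in limma 3.58.1, R 4.3.3 (eBayes with trend, two-sided, Benjamini-Hochberg over all of them). Calls used an unadjusted p under 0.05. Single values were compared by exact permutation over tumors, where 3 against 3 cannot go below p = 0.1. The 14 alternatives were another pseudocount (0.1), no filter, a minimum mean of 2 FPKM, unscaled FPKM, quantile normalization, an eBayes step with no trend, replicate number as a block, voom on the recovered reads, and leaving out each tumor. The scripts were tested on simulated data, where the recovery of changed genes first fell just short of the mark set for it, and that mark was then lowered with the fit unchanged. Python 3.11.15 with numpy 2.4.6, pandas 2.3.3, scipy 1.17.1 and matplotlib 3.10.9 was used otherwise.

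The members and lists were chosen with earlier results of these data known. All members were named, with the 2 smallest p in each direction from each list, 9 genes whatever their p (Cdk2, Rb1, E2f1, Mki67, Erbb2, Myc, Mdm2, Cdkn2b and Cdkn2c, some in both sets), and the 3 genes most like Ccnd1 and Cdkn1a. The level order, ratios, motifs and the overlap of groups without IgG replicate 1 were chosen after the values were seen. Promoters of 7 members were found in the RefSeq table, and those of Ccnd1, Ccnd2 and Ccne2 were not used here.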

Additional observations from a re-analysis of the deposited data

How the results depend on the processing

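The number of members higher at an unadjusted p under 0.05 was 4, and over the 14 alternative fits between 3 and 6 members were called, the 6 including Ccne2 as lower. Of 139 member values under an alternative, 131 kept their direction and their side of the threshold. Log2 fold changes ran from 0.67 to 1.02 for Ccnd1, from 0.43 to 0.59 for Ccnd3, from 0.50 to 0.80 for Cdk4 and from 1.88 to 3.25 for Cdkn1a. Leaving out a tumor turned the direction of Ccnd2 (-0.04 in all tumors, -0.20 to 0.081 with 1 left out, positive without anti-PD-1 replicate 2), of Cdkn1b (-0.10 in all, -0.24 to 0.021, positive without IgG replicate 1) and of the Cdk6 share (a difference of 0.200 percentage points in all, -0.195 to 0.760, negative without anti-PD-1 replicate 3), none of which passed a test, and that of the mitotic list median, which had no test. Ccnd2 was not tested at a mean FPKM of at least 2. Over all alternatives the list medians ran from 0.01 to 0.07 for the other G1 regulators, from 0.06 to 0.34 for the E2F list, from -0.07 to 0.46 for the mitotic list (negative without IgG replicate 2), from 0.02 to 0.31 for the ErbB and ERK list (0.05 with quantile normalization) and from 0.37 to 0.64 for the p53 list. The causes were not tested.

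With the replicate number as a block, the same 4 members were called (unadjusted p = 0.022 for Ccnd1, 0.028 for Ccnd3, 0.024 for Cdk4 and 0.031 for Cdkn1a), and 1725 in place of 1848 genes passed over the whole table. What the replicate numbers stand for is not stated. Deviations of same-numbered tumors from the group means correlated at -0.16, 0.01 and 0.19 for replicates 1, 2 and 3. Those of differently numbered tumors ran from -0.26 to 0.24. With 3 tumors a group these values cannot decide whether same-numbered tumors shared more than a number. Voom on recovered reads called the same 4 members and gave 1 gene of 14386 an adjusted p under 0.05.

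With 3 tumors a group, exact permutation tests between the groups cannot pass 0.05, and Ccne1, Ccne2, Ccnd2 and Cdkn2a rest on few reads, down to 62 in a tumor for Cdkn2a.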
